A study of Mus musculus with 6 samples.

Results

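Integrins are cell surface receptors made of 1 alpha and 1 beta subunit, and laminins are the secreted proteins, each made of an alpha, a beta and a gamma chain, to which many of them bind. The genes of both families were picked from the deposited table by symbol, as Itga or Itgb followed by digits or a single letter, or Lama, Lamb or Lamc followed by digits. The rule used no measured value, and found 37 of 53110 rows. Of these, 26 were integrin rows (18 alpha and 8 beta) and 11 were laminin rows (5 alpha, 3 beta and 3 gamma). They stand for 36 symbols, because Itgam was listed under 2 Ensembl identifiers.

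The RNA came from primary cortical neural stem cells (NSCs) of the mouse, grown attached to Matrigel with bFGF and EGF at 21% O2, either wild type (WT) or heterozygous for a Setd5 mutation made with CRISPR-Cas9 (Setd5+/-). Setd5 encodes a SET domain protein that acts on chromatin. The labels list 3 samples per genotype, but the column names give the 3 samples of a genotype the same index and lane, and the mutant columns all name clone A3. The reads of the samples within a genotype differed no more than random sampling of read pairs from a single library, with the 2 ends of a pair counted once (chi-square per degree of freedom 0.958 to 0.981, against 32.2 to 32.3 between genotypes). They were therefore counted as 1 library per genotype, of 30004634 reads in WT and 21435546 in Setd5+/-, and there is no replicate check of any difference between genotypes. The p-values and 95% intervals that follow compare the reads of 2 libraries and cover counting error only. Genotype, clone, library and lane cannot be told apart, and neither can fewer cells of a kind and less RNA per cell.

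In the developing cortex, neural stem cells contact a basement membrane that contains laminin and carry laminin receptors such as the alpha6 beta1 integrin. Binding from outside and talin and kindlin from inside the cell switch an integrin to its active form, which links the matrix to actin. Matrigel, the coating used for both genotypes, is an extract of basement membrane that is itself rich in laminin protein, but the RNA counts come from the cells.

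The promoters of a few members are shown here, of which Lamb1, Itga5 and Itgb1 were higher in the Setd5+/- library and Itgb5 was lower. RefSeq windows of 300 bases (250 before and 50 after an annotated start site, assembly GRCm38.p6) were at hand for 22 of the 36 member genes, in 25 windows. Some of these start sites lie well inside the gene, as for Itga9, Lamb3 and a window of Itga3. Each is printed 5′ to 3′ on the strand of the gene. Capitals mark matches, on either strand, to the letters of 5 motifs, of which 3 occur in the windows printed. These were the GC box GGGCGG (reverse CCGCCC), the CCAAT box CCAAT and the TEAD motif GGAATG, and no 2 of the matches overlap.
Lamb1 (chr12:31265043-31265342, plus strand): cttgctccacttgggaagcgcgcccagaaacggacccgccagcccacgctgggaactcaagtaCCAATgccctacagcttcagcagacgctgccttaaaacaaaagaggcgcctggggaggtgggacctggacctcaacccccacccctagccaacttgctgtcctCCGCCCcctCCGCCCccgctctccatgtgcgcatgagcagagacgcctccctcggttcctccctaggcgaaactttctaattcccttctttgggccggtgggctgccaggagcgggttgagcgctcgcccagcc
Itga5 (chr15:103366742-103367041, minus strand): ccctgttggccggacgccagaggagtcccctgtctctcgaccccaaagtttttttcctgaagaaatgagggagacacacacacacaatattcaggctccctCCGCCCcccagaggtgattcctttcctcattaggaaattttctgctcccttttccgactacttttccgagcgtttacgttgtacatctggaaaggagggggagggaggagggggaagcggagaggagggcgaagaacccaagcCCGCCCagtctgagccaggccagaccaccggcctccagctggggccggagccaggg
Itgb1 (chr8:128685404-128685703, plus strand): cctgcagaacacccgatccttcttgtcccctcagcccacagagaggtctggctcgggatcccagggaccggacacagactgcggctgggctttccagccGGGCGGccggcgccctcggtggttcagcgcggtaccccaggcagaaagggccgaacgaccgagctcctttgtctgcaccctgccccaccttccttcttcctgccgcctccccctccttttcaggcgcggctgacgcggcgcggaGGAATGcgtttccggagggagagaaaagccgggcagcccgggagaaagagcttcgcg
Itgb5 (chr16:33829415-33829714, plus strand): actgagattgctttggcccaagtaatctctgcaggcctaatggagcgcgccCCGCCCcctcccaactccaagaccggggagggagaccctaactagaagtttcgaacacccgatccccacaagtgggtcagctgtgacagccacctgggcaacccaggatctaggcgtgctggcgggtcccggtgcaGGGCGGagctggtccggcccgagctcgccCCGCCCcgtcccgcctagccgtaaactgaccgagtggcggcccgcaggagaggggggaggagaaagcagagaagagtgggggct
The Lamb1 window held 2 GC boxes and 1 CCAAT box, the Itga5 window 2 GC boxes, the Itgb1 window 1 GC box and 1 TEAD motif, and the Itgb5 window 3 GC boxes. The bases G and C made up 58.7% to 67.3% of these windows, against a median of 52.7% over all windows. Of the 14 members that were higher in Setd5+/- and had a window, 8 held a GC box, 3 a CCAAT box, 3 the TEAD motif, 2 the AP-1 motif TGANTCA and 0 the TATA box TATAAA. In the same order, the motifs were held by 11, 4, 3, 3 and 0 of all 22 member genes with a window. The shares of all 32851 windows with these letters were 35.7%, 37.4%, 14.7%, 7.81% and 13.6%. A gene was counted if any of its windows matched, while the shares are per window, so the units differ, and no difference was tested. Among the 14 higher members are Itga3 and Itga9, which held the AP-1 motif, and Lamb3, which held the TEAD motif. These entered the test only through the mutant library, so they had to be higher. A match is a run of letters, not a site shown to be bound.

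Most integrin and laminin genes that could be measured were higher in the Setd5+/- library. Values are normalized counts, that is, reads divided by the size factor of the sample, and 16266 genes whose mean over the samples reached 10 were tested, among them 22 of the 37 member rows. On a log2(normalized count + 1) scale, 12 of the 22 were at least 2-fold higher in Setd5+/- and 0 were 2-fold lower. Over all tested genes, 10.3% were 2-fold higher and 6.38% were 2-fold lower. With limma and a Benjamini-Hochberg adjusted p under 0.05, 19 members were higher, 1 (Itgb5) was lower and 2 (Itgb3 and Lama3) did not pass, where 30.3% of all tested genes were higher and 30.9% were lower. The samples of the genotypes did not overlap in 20 of the 22, against 65.3% of all tested genes.

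Of those 22, Itga3, Itga9, Lama1 and Lamb3 were under 10 normalized counts in WT and entered the test only through the mutant library, so they had to be higher. Among the 18 members above this level in both libraries, 15 were higher, 1 was lower and 8 were at least 2-fold higher, against 29.6%, 30.9% and 8.35% of the 15347 genes filtered alike. The median log2 fold change of these 18 was 0.92, with 0.89 for the 12 integrins and 1.63 for the 6 laminins, beside -0.02 over the 15347 genes.

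**Figure D1:**
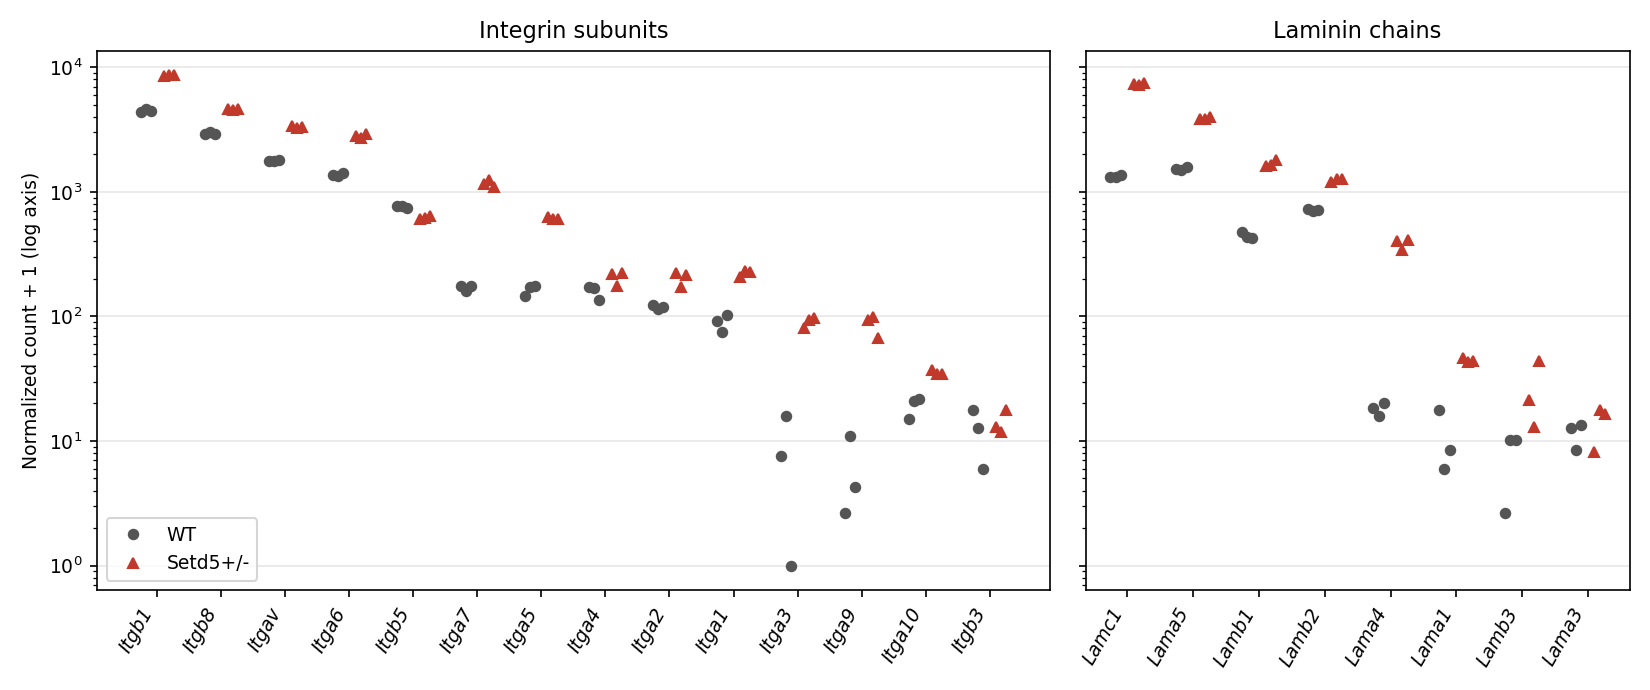
Normalized count plus 1 (log axis) of the 14 integrin and 8 laminin genes that were tested, with each WT sample as a grey circle and each Setd5+/- sample as a red triangle; the 3 points of a genotype are parts of 1 library. The red triangles lie above the grey circles for 19 genes and below them for Itgb5, and the points mix for Itgb3 and Lama3.

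Lamc1, which encodes the gamma1 chain found in most laminins, stood at 1305, 1320 and 1370 normalized counts in WT and at 7314, 7254 and 7454 in Setd5+/-. Every mutant value was thus several times every WT value, and the log2 fold change was 2.46 (interval 2.40 to 2.53), or 5.51-fold. Lamc1 lies on chromosome 1, a chromosome where the log2 fold changes of 1044 tested genes had a median of 0.53, against -0.04 elsewhere. Relative to that chromosome median the difference of Lamc1 was 1.93 (1.87 to 1.99). Lamc3, the gamma3 chain gene, had 2 reads in WT and 0 in Setd5+/-, which gives no order.

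Among the alpha chains, which carry the part that receptors bind, Lama5 had the highest level per kb of exon in both libraries. It measured 1532, 1510 and 1585 normalized counts in WT and 3822, 3873 and 3991 in Setd5+/-, a log2 fold change of 1.34 (1.27 to 1.40) with no overlap. Lama4, a chain known from vessel and mesenchymal basement membranes, had the largest log2 fold change of the tested members, though its interval overlaps those of Itga3 and Itga9. Its values were 17.4, 14.9 and 19.0 in WT and 399, 342 and 411 in Setd5+/-, a log2 fold change of 4.41 (3.92 to 4.90), or 22.4-fold.

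Lama1, the alpha chain of the earliest embryonic laminin, gave 16.6, 4.96 and 7.45 normalized counts in WT and 45.3, 41.7 and 42.9 in Setd5+/-. All mutant values lay above all WT values, with a log2 fold change of 2.20 (1.50 to 2.91). Lama3, an epithelial chain, gave 11.6, 7.45 and 12.4 in WT and 7.15, 16.7 and 15.5 in Setd5+/-. The samples overlapped, and the interval of its log2 fold change of 0.24 ran from -0.62 to 1.11 (limma adjusted p = 0.652). Lama2, the chain of muscle and Schwann cell laminin, had 2 reads in WT and 6 in Setd5+/-.

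Both abundant beta chain genes were higher. Lamb1, for the beta1 chain, measured 474, 436 and 425 normalized counts in WT and 1621, 1656 and 1793 in Setd5+/-, a log2 fold change of 1.92 (1.81 to 2.04). Lamb2, for the beta2 chain of synaptic and kidney basement membranes, measured 731, 704 and 710 in WT and 1193, 1260 and 1271 in Setd5+/-, a log2 fold change of 0.80 (0.69 to 0.90). The intervals of these 2 differences do not overlap. The epithelial beta3 chain gene Lamb3, also on chromosome 1, was near the detection limit, with 1.66, 9.10 and 9.11 in WT and 20.3, 11.9 and 42.9 in Setd5+/-. Its log2 fold change of 1.82 (0.98 to 2.67, limma adjusted p = 0.00352) became 1.29 (0.45 to 2.14) relative to the chromosome median, and its adjusted p rose to 0.0552 without the third Setd5+/- sample and to 0.0503 without the filter on low values.

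To compare chains with each other, levels were divided by the exon length of the gene (normalized counts per kb). The gamma chains summed to 161 in WT and 889 in Setd5+/-, the alpha chains to 139 and 380, and the beta chains to 163 and 378. The ratios of Setd5+/- to WT were thus 5.52 for gamma, 2.73 for alpha and 2.32 for beta chains. The 3 kinds of chain stood at like levels in WT, and the gamma chains stood above both others in Setd5+/-. Within the alpha chains the share of Lama5 was 97.5% in WT and 90.1% in Setd5+/-, and that of Lama4 was 1.02% and 8.38%. Within the beta chains Lamb1 made up 27.5% in WT and 45.0% in Setd5+/-, and Lamb2 71.9% and 54.0%.

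**Figure D2:**
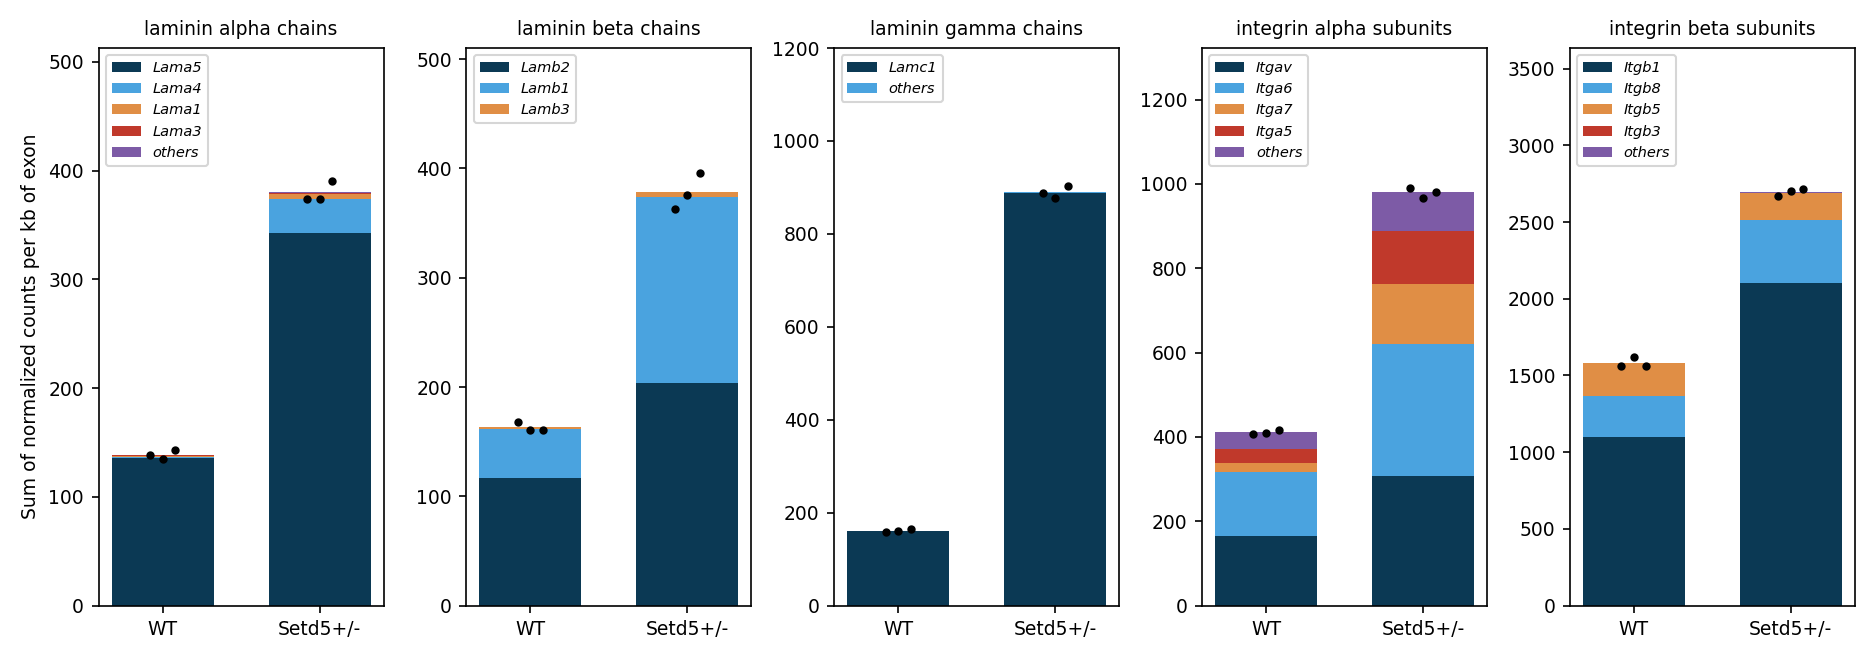
Sum of normalized counts per kb of exon in each kind of chain or subunit, as stacked bars of the mean of each library, with black points for the sums of the single samples and with a separate linear axis from 0 in each panel. The gamma chains go from 161 in WT to 889 in Setd5+/-, almost all of it Lamc1, and the integrin beta subunits from 1580 to 2693, most of it Itgb1.

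Of the 4 tested genes of laminin-binding integrin subunits, Itgb1, Itga6 and Itga7 were higher, and so was Itga3, which passed the filter only through the mutant library. Over all tested genes, 30.3% were higher by the adjusted p. Itgb1, whose product pairs with most of the alpha subunits expressed here, had the highest level per kb of exon in both libraries. Its values were 4412, 4595 and 4433 normalized counts in WT and 8483, 8629 and 8615 in Setd5+/-. Its log2 fold change was 0.94 (0.90 to 0.98), or 1.91-fold. Itga6, the alpha subunit used widely as a neural stem cell surface marker, measured 1356, 1336 and 1407 in WT and 2829, 2709 and 2886 in Setd5+/-, a log2 fold change of 1.04 (0.97 to 1.11). Both were about doubled, with narrow counting intervals.

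Itga7, a laminin receptor subunit best known from muscle and also found on glia, measured 173, 160 and 176 normalized counts in WT and 1148, 1252 and 1085 in Setd5+/-. This was 6.85-fold, a log2 fold change of 2.77 (2.59 to 2.94). Itga3, which with beta1 also binds laminin, measured 6.63, 14.9 and 0 in WT and 79.9, 92.9 and 95.3 in Setd5+/-, a log2 fold change of 4.19 (3.46 to 4.91). Its log2 fold change ranged from 3.03 to 5.03 when single samples were left out. Itgb4, the beta subunit of hemidesmosomes, had 13 reads in WT and 19 in Setd5+/- and was not tested.

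The subunits that bind the RGD motif of fibronectin, vitronectin and related proteins were mixed. Itga5, the alpha subunit of the classical fibronectin receptor, measured 145, 170 and 176 normalized counts in WT and 628, 605 and 599 in Setd5+/-, a log2 fold change of 1.90 (1.71 to 2.09). Itgav, the shared alpha subunit of the vitronectin receptors, measured 1781, 1775 and 1785 in WT and 3369, 3249 and 3326 in Setd5+/-, a log2 fold change of 0.90 (0.83 to 0.96). Itgb8, whose product pairs with alphav and activates latent TGF-beta in the brain, measured 2902, 3035 and 2914 in WT and 4608, 4507 and 4615 in Setd5+/-, a log2 fold change of 0.63 (0.58 to 0.69).

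Itgb5, another partner of alphav, was the only tested member that was lower. Its values were 764, 763 and 744 normalized counts in WT and 602, 613 and 640 in Setd5+/-. The samples did not overlap, but the difference was small, 1.22-fold or a log2 fold change of -0.29 (-0.42 to -0.17, limma adjusted p = 9.38e-05). Itgb3, the beta subunit of platelets and osteoclasts, measured 16.6, 11.6 and 4.97 in WT and 11.9, 10.7 and 16.7 in Setd5+/-. Its samples overlapped (log2 fold change 0.34, interval -0.51 to 1.19), and the sign turned to -0.10 without the third WT sample. Itga8, which binds nephronectin, had 17 reads in WT and 14 in Setd5+/-, and Itgb6, an epithelial beta subunit, had no reads.

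The 3 tested collagen-binding subunits were all higher by the adjusted p, as were 30.3% of all tested genes. Itga1 measured 90.4, 74.5 and 102 normalized counts in WT and 206, 230 and 228 in Setd5+/-, a log2 fold change of 1.32 (1.04 to 1.59). Gm49395, with a mean of 98.0 in WT and 63.9 in Setd5+/-, shares 3.68% of the Itga1 exon bases on the same strand. Itga2, which lies 21.0 kb from Itga1 on chromosome 13 with no protein-coding gene between, measured 122, 113 and 117 in WT and 223, 170 and 216 in Setd5+/-, a log2 fold change of 0.78 (0.52 to 1.03). Both subunits pair with beta1. Itga10, the cartilage subunit, measured 14.1, 19.9 and 20.7 in WT and 35.8, 33.3 and 33.4 in Setd5+/-, a log2 fold change of 0.89 (0.27 to 1.50, limma adjusted p = 0.0109), which no longer passed without the first WT sample (0.72, adjusted p = 0.0518). Of its exon bases, 33.5% are shared on the same strand with Gm42957, so its reads are uncertain. Itga11 had 4 reads in WT and 8 in Setd5+/-.

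Of the 10 rows of the leukocyte and alpha4 or alpha9 group, 2 were tested. Itga9, whose product binds tenascin-C and VCAM-1, measured 1.66, 9.93 and 3.31 normalized counts in WT and 93.0, 97.7 and 66.7 in Setd5+/-, a log2 fold change of 4.10 (3.28 to 4.91). The WT level was near the detection limit. Itga4, which binds VCAM-1 and fibronectin, measured 171, 167 and 135 in WT and 218, 176 and 224 in Setd5+/-, a log2 fold change of 0.38 (0.15 to 0.62, limma adjusted p = 0.0103), which did not pass without the third WT sample (0.28, adjusted p = 0.0867) or the third Setd5+/- sample (0.32, adjusted p = 0.0557). Cerkl on the other strand shares 8.04% of the Itga4 exon bases.

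The genes of integrins that belong to blood cells were nearly silent in both libraries. In WT and Setd5+/-, Itgal had 6 and 5 reads, Itgae 5 and 12, Itgb2 2 and 4, and Itgb7 2 and 0. Itgax and Itgad each had 0 reads in WT and 2 in Setd5+/-. The Itgam row that carries the gene's own identifier had 0 reads, and the other row, which the GENCODE vM21 annotation calls Gm49368 and which shares 68.7% of the Itgam exon bases, had 0 and 2. Outside the symbol rule, the platelet subunit gene Itga2b measured 11.6, 21.5 and 12.4 in WT and 41.7, 20.2 and 31.0 in Setd5+/- with overlapping samples, a log2 fold change of 0.98 (0.32 to 1.63, limma adjusted p = 0.0168), and Itgb2l had no reads.

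**Figure D3:**
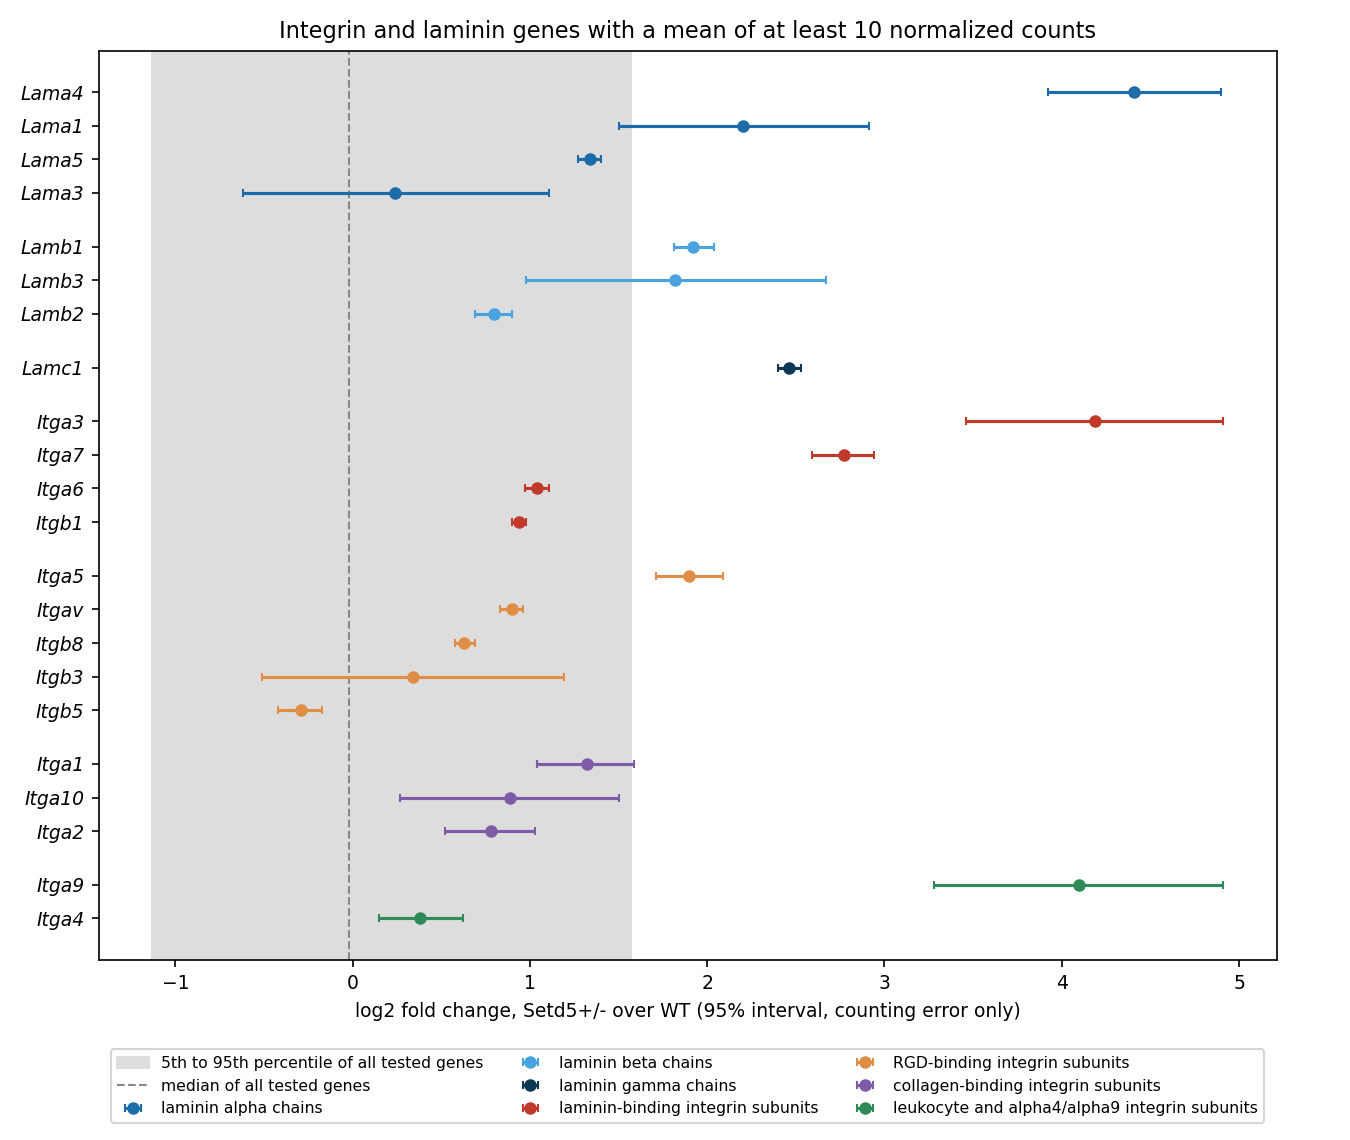
log2 fold change of Setd5+/- over WT for the 22 tested members, coloured by chain or by what the subunit binds, with 95% intervals for counting error; the grey band spans the 5th to 95th percentile of all tested genes (-1.13 to 1.57) and the dashed line is their median of -0.02. Lama4, Itga3 and Itga9 lie far to the right of the band, Itgb5 is the only point left of 0, and Itgb3 and Lama3 have intervals across 0.

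Per kb of exon, the integrin alpha subunits summed to 411 in WT and 979 in Setd5+/- (2.38 times), and the beta subunits to 1580 and 2693 (1.70 times). The 12 alpha subunits that can pair with beta1 went from 410 to 977, and Itgb1 from 1098 to 2101, so the transcripts of beta1 exceeded the sum of its possible alpha partners in both libraries. Among alpha subunits, Itgav held 40.4% of the sum in WT and 31.5% in Setd5+/-, and Itga6 36.9% and 31.8%. Itga7 made up 5.10% in WT and 14.7% in Setd5+/-, and Itga5 8.08% and 12.7%. Among beta subunits, Itgb1 held 69.5% and 78.0%, Itgb8 16.9% and 15.4%, and Itgb5 13.5% and 6.46%. Levels per kb rest on the summed exon length of all annotated transcripts, which may not be the length expressed.

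The genes that work with integrins and laminins did not all share this direction. The counts by adjusted p that follow stand beside 30.3% of all tested genes higher and 30.9% lower. All 6 integrin-associated tetraspanins, membrane proteins that gather integrins into clusters, were higher by the adjusted p, with a median log2 fold change of 1.15. Cd82 had the largest difference, from 12.4, 16.5 and 6.63 normalized counts in WT to 124, 146 and 143 in Setd5+/- (log2 fold change 3.51, interval 2.92 to 4.10). Cd9 had the smallest, from 499, 480 and 486 to 737, 692 and 721 (0.55, interval 0.42 to 0.68).

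Of 12 tested genes for other integrin ligands, 9 were higher and 3 lower, with a median of 1.96, and 3 of the 9 entered the test only through the mutant library. Of the 8 ligand rows that were not tested, Thbs1 had 64 reads in WT and 4 in Setd5+/-, and Icam1 had 18 and 0, both without overlap of the samples. Fbln5, an elastic fibre protein with an RGD motif, measured 3.32, 3.31 and 3.31 normalized counts in WT and 205, 212 and 200 in Setd5+/-, a log2 fold change of 5.58 (4.69 to 6.47). It is one of those 3. Cyr61, a matrix protein that binds alphav integrins and a known target of YAP, measured 290, 242 and 239 in WT and 56.0, 60.7 and 63.1 in Setd5+/-, a log2 fold change of -2.08 (-2.42 to -1.74). Among the partner genes that were tested, Cyr61 had the largest negative log2 fold change. The largest positive one was that of Fbln5, which could only be higher.

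Of 12 basement membrane linkers and other laminin receptors, 11 were higher and 1 lower, with a median of 1.09. Bcam, a receptor for the laminin alpha5 chain, measured 32.3, 46.3 and 33.1 normalized counts in WT and 133, 124 and 172 in Setd5+/-, a log2 fold change of 1.92 (1.53 to 2.30). Nid1, which encodes the nidogen that ties the laminin gamma1 chain to collagen IV, was the one that was lower. It measured 146, 137 and 142 in WT and 42.9, 86.9 and 67.9 in Setd5+/-, a log2 fold change of -1.15 (-1.49 to -0.80), opposite in sign to that of Lamc1.

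The integrin activators and adaptors inside the cell had 9 of 22 tested genes higher and 7 lower, beside 30.3% and 30.9% of all tested genes, with a median of 0.06. Parvg, an adaptor that binds the integrin-linked kinase, measured 3.32, 7.45 and 0 normalized counts in WT and 29.8, 34.5 and 25.0 in Setd5+/- (log2 fold change 3.20, interval 2.24 to 4.16), and so entered the test only through the mutant library. Zyx, the focal adhesion protein zyxin, measured 352, 366 and 417 in WT and 178, 177 and 189 in Setd5+/- (-1.05, interval -1.26 to -0.84). Of 13 tested genes for enzymes that build the laminin-binding sugar of dystroglycan, 8 were higher and 0 lower, with a median of 0.24, and 0 were past 2-fold. Tmem5 had the lowest value of the list, 0.01 (interval -0.17 to 0.19).

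**Figure D4:**
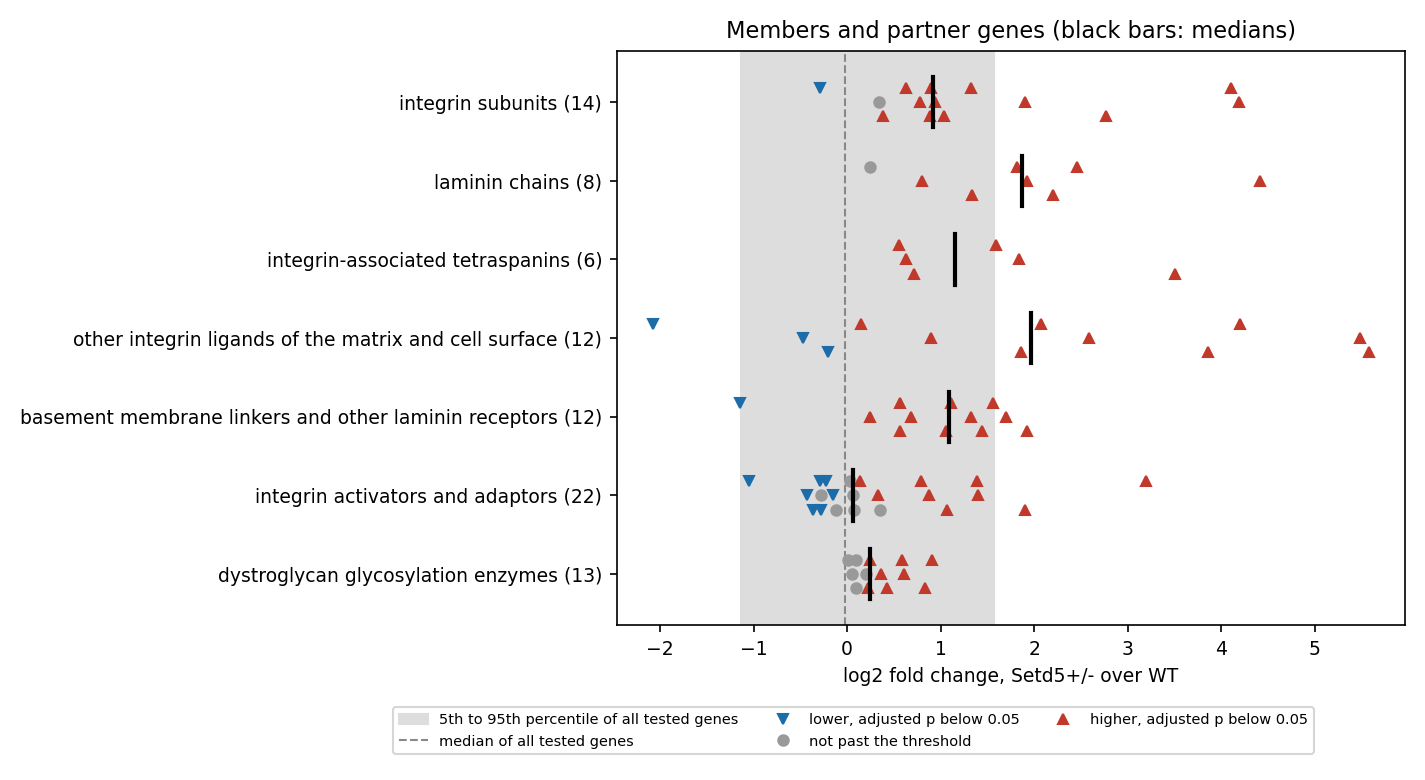
log2 fold change of Setd5+/- over WT for each tested gene in the 2 families and the 5 partner lists (number tested in brackets), with triangles for genes past an adjusted p of 0.05, grey circles for the others and black bars for medians; the grey band and dashed line are the 5th to 95th percentile and the median of all tested genes. Laminins, tetraspanins, other ligands and basement membrane linkers have medians of 1.09 or more, and the activators and adaptors have a median of 0.06. The integrins, laminins, other ligands and adaptors include genes that entered the test only through the mutant library. Those genes had to be higher, which raises the medians shown.

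The markers of other cells that express these genes did not move as one group. Setd5 itself measured 2498, 2749 and 2780 normalized counts in WT and 2151, 1990 and 2055 in Setd5+/-, a log2 fold change of -0.37 (-0.44 to -0.30). All 10 neural stem cell markers had reads in both libraries, with 3 higher and 6 lower in Setd5+/-, against 30.3% and 30.9% of all tested genes. Of those 6, Prom1 entered the test only through WT, so it could only be lower. It had 89 reads in WT and 6 in Setd5+/-, near the detection limit there. The 10 stem cell markers summed to 74362 to 74521 normalized counts per sample in WT and 53715 to 54414 in Setd5+/-. Within that sum Fabp7 went from a mean of 36015 to 11490 and Vim from 9095 to 13822, and Slc1a3 stood at 20983 and 21117. Of 10 markers of mesenchymal, meningeal and mural cells, 2 were tested and 8 were too low. The 10 summed to 144 to 147 in WT and 78.6 to 88.1 in Setd5+/-, most of it Foxc1 (mean 100 in WT and 53.2 in Setd5+/-) and Tagln (25.9 and 15.5). Dcn, Pdgfrb, Col1a2 and Lum had no reads in Setd5+/- (Lum had none in WT either), and Rgs5 went from a mean of 2.21 in WT to 6.35 in Setd5+/-, from 8 and 16 reads. The 7 endothelial markers summed to 9.11 to 18.2 in WT and 13.1 to 29.8 in Setd5+/-, with 1 tested, through the mutant library only, and higher (Kdr) and with Cdh5, Cldn5 and Emcn at 0 there, and the 7 leukocyte markers to 120 to 159 and 67.9 to 92.9, with Ptprc, Tyrobp and Cx3cr1 at 0 in both libraries. Of 6 epithelial markers, 5 had no reads in either library.

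Markers of neural lineages also differed between the libraries. The counts by adjusted p in this paragraph stand beside 30.3% of all tested genes higher and 30.9% lower. The 6 neuron markers summed to 383 to 414 normalized counts in WT and 81.0 to 90.5 in Setd5+/-. Neurod6 was at 0 in both libraries and Rbfox3 at 0 in Setd5+/-. Of the 4 tested, 3 were lower and 1 was not called. Syt1 and Snap25, 2 of these 3, entered the test only through WT, so they could only be lower. The 5 astrocyte markers were split, with 3 higher and 2 lower. From WT to Setd5+/- the means of Gfap went from 17.1 to 263, of Aqp4 from 57.7 to 187 and of S100b from 339 to 737, while those of Slc1a2 went from 4678 to 1225 and of Aldh1l1 from 380 to 147. Their sum, most of it Slc1a2 in WT, was 5410 to 5540 in WT and 2419 to 2659 in Setd5+/-. The 7 oligodendrocyte lineage markers summed to 40994 to 41786 in WT and 23688 to 24533 in Setd5+/-, most of it Olig1 and Olig2. Of the 7, 3 were higher and 4 lower. Sox10 and Mbp, 2 of the 4, entered the test only through WT, so they could only be lower. Sox10 had 1080 reads in WT and 4 in Setd5+/-, a log2 fold change of -7.05 (-8.26 to -5.84). The mean of Mbp was 32.3 in WT and 6.35 in Setd5+/-. Apart from Neurod6 and Rbfox3, no marker of these 3 lists was at 0. The part of such shifts in the integrin and laminin differences was not tested.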

How the data were processed

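RNA-seq of NSCs at 21% O2 was analysed in 6 samples, 3 labelled WT and 3 Setd5+/-. Per the labels and methods, the authors trimmed reads with Trimmomatic, aligned them to mm10 with Bowtie2 and normalized counts with DESeq2; the counting program and its use of strand are not given in the sources used here, so reads of overlapping genes can be mixed. The deposited values are normalized counts (unit: other, because many decimal points had been lost or moved on export). The authors' own comparison columns (fold changes and p-values) were not used. No column of samples was left out.

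The decimal points were put back with the worth of a single read in each sample (0.827 to 0.829 in WT and 1.19 normalized counts in Setd5+/-). The restored values of 52438 of 53110 rows gave the deposited mean, which chose the placement in 1116 rows; the other 672 rows hold no values. On simulated data 100% of 48000 values were recovered. Samples of a genotype agree within sampling noise and count as 1 library; their variance over the mean was 1.95 in WT and 1.92 in Setd5+/-, as when both ends of a read pair are counted, and the counting intervals use the mean of both, 1.93.

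The functions lmFit and eBayes (with trend) of limma 3.58.1, under R 4.3.3, were applied to log2(normalized count + 1) of the 16266 genes whose mean reached 10, p-values were adjusted by Benjamini and Hochberg's method, and 0.05 was the threshold. Fold changes on this scale understate the change of low genes. A 2-fold rule (log2 fold change of at least 1) was used beside it. The restored values correspond to whole reads, but no count test was run on them. On simulated data the test called 67.7% of 1.5-fold, 86.4% of 2-fold and 100% of 4-fold changes among 15988 genes. The members, partner lists and marker lists were chosen with earlier results of these data known. Named were every member, Itga2b and Itgb2l, Setd5, and the genes with the largest and the smallest value of each partner list, except 2 genes that are not reported here; Gm42957, Gm49368 and Cerkl are named for shared exons, and markers and untested ligands after their values were seen. Gene positions and exon lengths are from GENCODE vM21 (GRCm38), promoters from RefSeq.

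The replicate numbers of the labels did not pair the samples (correlations of the deviations 0.00490, 0.00153 and -0.00705). Alternatives were other pseudocounts, filters and scalings, a replicate block, a stricter rule for calls, a wider symbol rule and each sample left out.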

Additional observations from a re-analysis of the deposited data

How the results depend on the processing

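Under the other pseudocounts, filters and scalings, the block and the samples left out, 18 of the 22 tested members kept their direction and their side of the threshold wherever they could be tested. The exceptions are Itgb3 (log2 fold change -0.10 to 0.68 when single samples were left out, -0.10 without the third WT sample, adjusted p = 0.868, no call in either case), Lamb3, Itga4 and Itga10, whose values stand in the report; the cause was not tested. The number of members higher by limma's adjusted p was 17 to 20 and the number lower was 1 when single samples were left out, and for the partner lists 40 to 44 and 8 to 11. With a replicate block the counts were 19 higher and 1 lower, and the block changed no call. Asking for 2-fold besides the adjusted p left 12 members higher and 0 lower, and 22 partner genes higher and 3 lower, where 43 and 11 passed without it; fewer genes meet a stricter rule by its construction.

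The median over all 14 tested integrins was 0.92 and over all 8 tested laminins 1.87, both including genes that passed the filter only through the mutant library. With a pseudocount of 5 the laminin median was 1.57. The integrin median was 0.81 without a filter, and 0.88 both with upper quartile and with total scaling, which moved the median of all genes from -0.02 to -0.06. Leaving out single samples gave 0.91 to 0.96 for integrins and 1.62 to 2.11 for laminins. Depth limits the 15 members that were not tested: for a gene with no reads, up to 1.66 normalized counts in WT and 2.38 in Setd5+/- cannot be told from 0. Leaving out a sample removes part of a library, so it does not measure how cultures or clones differ.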
